A study of Mus musculus with 24 samples.

Results

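The calcium/calmodulin-dependent kinases described here are 8 genes of the mouse hippocampus, Camk2a, Camk2b, Camk2d and Camk2g for the subunits of CaMKII, Camkk1 and Camkk2 for the CaMK kinases, and Camk4 and Camk1 for kinases that the CaMK kinases activate. They were taken by symbol from the raw count files, which hold 49568 gene symbols, and all 8 were among the 18482 genes that passed the filter on low counts. Hippocampal mRNA came from wild-type (WT) mice and from mice homozygous for a kinase-dead MSK1 (MSK1 KD), in which an aspartate of the N-terminal kinase domain is replaced by alanine throughout the body and the protein itself remains. Mice of each genotype lived in standard housing (SH) or, from before birth, in an enriched environment (EE) with a running wheel and objects that were changed. The 4 groups were 6 WT SH, 5 WT EE, 6 KD SH and 5 KD EE libraries. All were male, on a C57-Bl/6J background, experimentally naive and 12 weeks old by the labels, and the 2 genotypes were kept as separate homozygous lines founded by crosses of heterozygotes. The labels do not say that libraries of a group come from separate litters, so the tests measure the spread between these libraries.

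CaMKII is a large holoenzyme that is among the most abundant proteins of the postsynaptic density. Calcium-bound calmodulin opens each subunit, and neighbouring subunits then phosphorylate each other at a threonine, which keeps the kinase active after calcium has fallen, a step needed for long-term potentiation in the hippocampus. The CaMK kinases work as a separate cascade. They phosphorylate CaMKI, which acts in the cytoplasm on axon and dendrite growth, and CaMKIV, which acts in the nucleus on the transcription factor CREB, a substrate that MSK1 also phosphorylates. The comparisons ask whether the mRNA of these kinases differs with housing, with the kinase activity of MSK1, or with housing in a way that depends on the genotype.

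The stretch that encodes the autophosphorylated threonine and its surroundings is shown for 3 CaMKII subunits, because it is the part that makes the family a calcium switch. Each run holds 48 coding bases of GENCODE M21 on GRCm38, 5′ to 3′ on the coding strand, lies within 1 exon, and has the codon of the threonine in capitals. The codon is number 287 in each of the 3 reading frames. The runs lie at chr11:5988979-5989026 on the minus strand for Camk2b, chr3:126797714-126797761 on the plus strand for Camk2d and chr14:20760421-20760468 on the minus strand for Camk2g.
Camk2b: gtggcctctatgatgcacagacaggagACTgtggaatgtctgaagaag
Camk2d: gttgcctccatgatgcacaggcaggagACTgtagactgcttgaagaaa
Camk2g: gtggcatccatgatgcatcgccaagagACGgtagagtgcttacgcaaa
Camk2b and Camk2d differed at 8 of the 48 bases, Camk2d and Camk2g at 12, and Camk2b and Camk2g at 16. No stretch of 100 bases in any transcript of the 4 subunit genes, of Camkk1, Camkk2 or Camk4 occurred in a transcript of another gene.

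CaMKII mRNA dominated the family. Camk2a, the α subunit of excitatory forebrain neurons, stood at 4336 CPM (counts relative to the total on genes in each library, scaled by TMM factors) as the mean of 22 libraries, and was the gene with rank 5 of all symbols in the files. Camk2b, the β subunit that also binds actin, followed at 1303 CPM with rank 50. The other members lay between 220 CPM for Camkk1 and 42.7 CPM for Camk1. Together the 8 genes took between 0.577% and 0.725% of the counts on genes of a library. In whole hippocampus, fewer cells of a type and less RNA per cell cannot be told apart.

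Levels of different genes were compared per kilobase of the longest coding transcript. On this scale Camk2a stood at 872 ± 63.9 CPM per kilobase (SD, n = 22) and Camk2b at 324 ± 27.3 (SD, n = 22). The lowest Camk2a library, at 751, lay above the highest Camk2b library, at 387. Camkk1 at 64.2 ± 6.69 (SD, n = 22), Camk2g at 57.0 ± 3.35 (SD, n = 22) and Camk4 at 55.1 ± 6.70 (SD, n = 22) came next, and the ranges of these 3 genes over the libraries overlapped. Camkk2 stood at 33.9 ± 2.10 (SD, n = 22) and Camk1 at 28.5 ± 2.03 (SD, n = 22), also with overlapping ranges. Camk2d was the lowest, at 13.1 ± 2.29 (SD, n = 22), and its highest library, at 17.96, lay below the lowest library of every other member. With all exons of the gene as the length, Camk4 took the fourth place and Camk2g the fifth, and the rest of the order was the same.

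**Figure D1:**
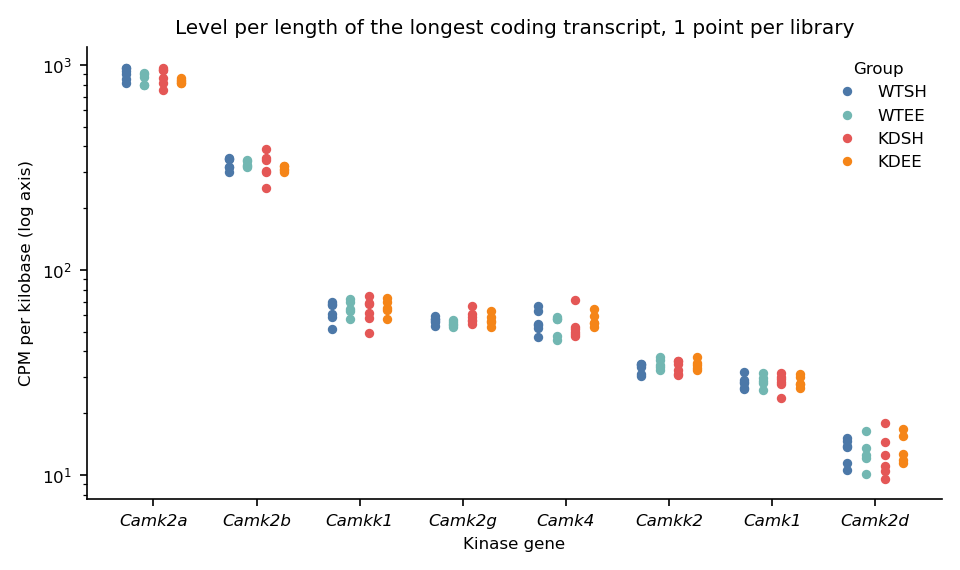
Level of each kinase gene in CPM per kilobase of its longest coding transcript, on a log axis, with 1 point per library and colours for the 4 groups. Camk2a lies above every other gene in all 22 libraries, Camkk1, Camk2g and Camk4 overlap, and Camk2d is the lowest.

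The makeup per length of the 4 CaMKII subunits was led by Camk2a in every group. Camk2a made up 69.3 ± 1.56% (SD, n = 6) of the sum in WT and 69.1 ± 0.727% (SD, n = 6) in KD under SH, and 68.3 ± 1.41% (SD, n = 5) in WT and 68.6 ± 0.860% (SD, n = 5) in KD under EE. The share of Camk2b was between 25.2% and 26.3% as a group mean, that of Camk2g between 4.35% and 4.69%, and that of Camk2d between 1.02% and 1.11%. The ranges of Camk2a, Camk2b and Camk2d overlapped between all groups. The share of Camk2g ran from 4.30% to 4.46% in WT EE and from 4.47% to 5.04% in KD EE, which did not overlap, whereas with all exons as the length it ran from 4.14% to 4.33% and from 4.304% to 4.88%, which did. No test was run on the shares. The shares rest on the length chosen, since with all exons as the length Camk2a made up 76.4% and Camk2b 18.8% over the 22 libraries.

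Camk2a had overlapping levels in all 4 groups, with lower group means under EE. In WT SH its level ran from 4038 CPM through a median of 4560 to 4814, and in KD SH from 3730 through 4501 to 4825. The WT EE libraries stood at 3970, 3970, 4325, 4472 and 4525 CPM, and the KD EE libraries at 4065, 4078, 4164, 4189 and 4309. The KD EE libraries lay closest together. With enrichment the fold change on the log2 scale was −0.08 (SE 0.07, 95% interval −0.22 to 0.05) in WT and −0.06 (SE 0.07, −0.20 to 0.07) in KD, with an adjusted p of 0.794 and 0.779 by edgeR's quasi-likelihood test. In the 17 libraries that the study tested, the value in WT was −0.17 (SE 0.08, unadjusted p 0.039, adjusted p 0.324 by edgeR). The study had removed 5 others for poor correlation within a group, so measured values shaped that set. Over both genotypes the fold change was −0.07 (SE 0.05, unadjusted p 0.130). It was −0.12 (SE 0.05, unadjusted p 0.030) in those 17 libraries and −0.11 (SE 0.05, unadjusted p 0.036) with an offset for GC content. The adjusted p of edgeR was between 0.226 and 0.459 in these fits. An unadjusted p under 0.05 was held by 13.7% of all genes for housing in WT in the 17 libraries, and over both genotypes by 17.2% there and 18% with the GC offset. Without library 5 the fold change over both genotypes was −0.09 (SE 0.04). Library 5 held the lowest Camk2a level of KD SH, 3730 CPM, so this value is a description and supports no test.

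Camk2b was also even, apart from a wider spread in KD SH. Its mean was 1329 ± 84.7 CPM (SD, n = 6) in WT and 1297 ± 191 (SD, n = 6) in KD under SH, and 1325 ± 50.5 (SD, n = 5) in WT and 1258 ± 40.5 (SD, n = 5) in KD under EE. The KD SH libraries spread most, from 1011 in library 5 to 1557 in library 6, and these were also the lowest and the highest of all 22. The ratio of Camk2b to Camk2a counts was 0.296 ± 0.0229 (SD, n = 6) in WT and 0.295 ± 0.0172 (SD, n = 6) in KD under SH, and 0.313 ± 0.0229 (SD, n = 5) in WT and 0.302 ± 0.0103 (SD, n = 5) in KD under EE.

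Camk2g, the γ subunit, which is known to carry calmodulin to the nucleus, was the steadiest member, with a log2 SD within groups of 0.08. Its group means were 210 ± 7.61 CPM (SD, n = 6) in WT and 218 ± 16.3 (SD, n = 6) in KD under SH, and 202 ± 5.90 (SD, n = 5) in WT and 212 ± 13.96 (SD, n = 5) in KD under EE. The means of KD exceeded those of WT in both housings, but the libraries overlapped. Over both housings the log2 fold change of KD against WT was 0.07 (SE 0.04, 95% interval −0.01 to 0.14), with an unadjusted p of 0.090 and an adjusted p of 0.803 by edgeR, the lowest p of any member in that comparison. Without library 4 of KD SH, and without library 36A of KD EE, its unadjusted p by edgeR was under 0.05 (lowest 0.042, lowest adjusted p 0.716). Each was the lowest Camk2g library of its group, at 201 and 195 CPM, so these fits are a description and support no test. Of all genes, 6.89% and 5.91% had an unadjusted p under 0.05 in these fits.

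Camk2d, the δ subunit best known from heart, varied most between libraries of a group. In WT SH it ran from 58.4 CPM through a median of 76.2 to 83.8, and in KD SH from 53.0 in library 4 through 65.1 to 99.2 in library 5. The WT EE libraries stood at 55.6, 66.7, 69.4, 75.1 and 90.7 CPM, and the KD EE libraries at 63.2, 65.2, 69.6, 85.7 and 92.0. Every group thus held both low and high libraries, and the lowest and the highest of the 22 were both in KD SH. The log2 SD within groups was 0.27, above that of 98.3% of the 5156 tested genes with a mean level of at least that of Camk1, and 0.23, above 97.5% of them, without library 5. The median over those genes was 0.12. Camk4 (0.18, above 89.5% of them) and Camkk1 (0.17, above 85.4%) came next among the members. The lowest count of Camk2d was 577 in a library.

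Camkk1 and Camkk2, the upstream kinases, were slightly higher with enrichment in the group means of both genotypes, by less than the spread. Camkk1 stood at 215 ± 23.5 CPM (SD, n = 6) in WT and 217 ± 30.7 (SD, n = 6) in KD under SH, and 224 ± 19.5 (SD, n = 5) in WT and 225 ± 19.98 (SD, n = 5) in KD under EE. Camkk2, which also activates the energy sensor AMPK, stood at 161 ± 9.70 CPM (SD, n = 6) in WT and 163 ± 11.6 (SD, n = 6) in KD under SH, and 169 ± 10.1 (SD, n = 5) in WT and 168 ± 9.73 (SD, n = 5) in KD under EE. Over both genotypes the log2 fold change with enrichment was 0.06 (SE 0.06, 95% interval −0.07 to 0.19) for Camkk1 and 0.07 (SE 0.04, −0.02 to 0.15) for Camkk2, with adjusted p of 0.687 and 0.444 by edgeR. The p of Camkk2 was the lowest of the members in this comparison, followed by that of Camk2a (adjusted p 0.459). The Camkk1 value in WT fell from 0.06 to 0.005 without library 14. In KD it fell from 0.06 to 0.003 without library 5, and over both genotypes from 0.06 to 0.03 without that library. The lowest Camkk2 values were 0.04 in WT, without library 35A, and 0.02 in KD, without library 32A.

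Camk4, the nuclear kinase, had a lower group mean with enrichment in WT and a higher one in KD, both within the spread of the libraries. The median in WT went the other way, at 147 CPM under SH and 156 under EE. In WT SH it ran from 128 CPM through a median of 147 to 180, and the WT EE libraries stood at 124, 130, 156, 156 and 160. In KD SH it ran from 130 through 138 to 193, and the KD EE libraries stood at 143, 149, 150, 162 and 174. The value of 193 was that of library 5, and the 5 others of KD SH had values from 130 to 142, below all KD EE libraries. With all libraries the log2 fold change with enrichment was −0.07 (SE 0.10, 95% interval −0.28 to 0.13) in WT and 0.11 (SE 0.10, −0.09 to 0.32) in KD. The difference between these effects was 0.18 (SE 0.14, −0.10 to 0.47), with an unadjusted p of 0.201 and an adjusted p of 1.0 by edgeR. It was 0.37 (SE 0.17, unadjusted p 0.042, adjusted p 0.622) without the libraries whose code carries a letter, where the fold change in WT was −0.27 (SE 0.13, unadjusted p 0.052, adjusted p 0.358). All lettered libraries are EE libraries. The fit without them kept only libraries 16 and 17 of WT EE, with the lowest Camk4 levels of that group, 130 and 124 CPM. With the choroid plexus score as a covariate the fold change in KD was 0.23 (SE 0.10, unadjusted p 0.028, adjusted p 0.329). Of all genes, 7.91% had an unadjusted p under 0.05 for the difference without the lettered libraries, and 13.2% for housing in KD with the covariate. No difference between the genotypes was called by edgeR in any of these fits.

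Library 5 stood out by its own Camk4 level, so the values of Camk4 without it are a description and support no test. Its log2 fold change with enrichment in KD was then 0.21 (SE 0.08), against 0.08 to 0.11 without any one of the other KD SH libraries. The difference between the housing effects was 0.28 (SE 0.12), and KD SH against WT SH gave −0.17 (SE 0.08), where the ranges of 0 of 8 members and of 0.584% of the genes were separate. The highest of the 5 remaining KD SH libraries, at 142.3 CPM, lay just under the lowest KD EE library, at 142.8, so that the ranges of Camk4 were separate by less than 1 CPM, and 1.12% of the 18482 genes had separate ranges in that comparison. No call was made by edgeR with or without this library. Camk4 overlaps the antisense gene 2310026I22Rik. The counting ignored strand, so reads of the shared stretch cannot be assigned by strand, and the counts do not show whether they went to either gene.

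Camk1, the cytoplasmic kinase, was the least abundant member in CPM and had the closest group means. Its group means were 42.4 ± 3.06 CPM (SD, n = 6) in WT and 42.5 ± 3.89 (SD, n = 6) in KD under SH, and 43.0 ± 3.00 (SD, n = 5) in WT and 42.8 ± 2.91 (SD, n = 5) in KD under EE. The log2 fold change of KD against WT in SH was 0.00 (SE 0.06, 95% interval −0.13 to 0.13). Its exons overlap those of Ogg1 on the other strand, and 1.11% of its stretches of 100 bases also occur in Ogg1.

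**Figure D2:**
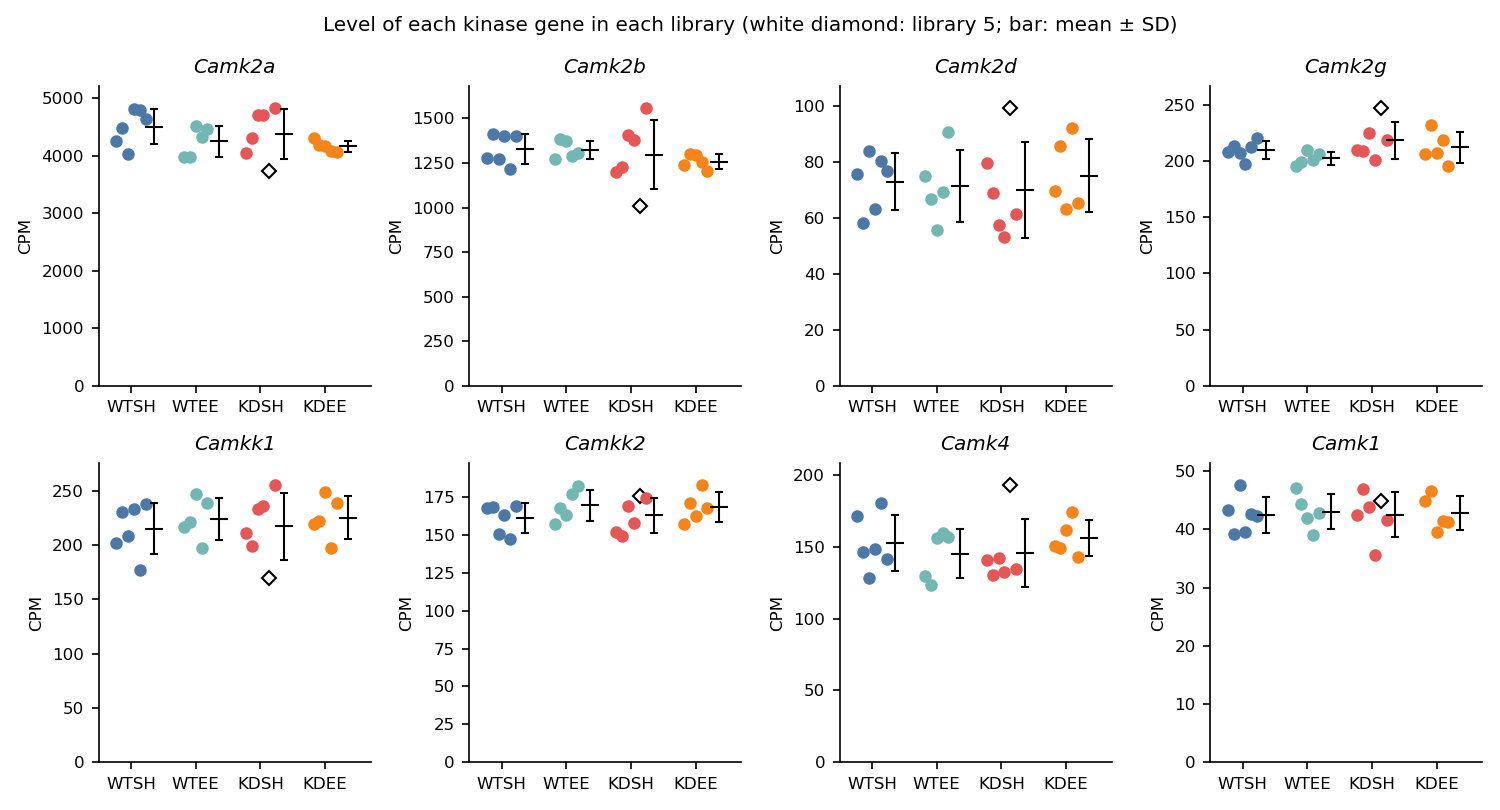
CPM of each kinase gene in each library, by group, on axes that start at 0, with the mean ± SD beside the points and library 5 of KD SH as a white diamond. All groups overlap for all 8 genes, and library 5 is the lowest of the 22 for Camk2a, Camk2b and Camkk1 and the highest for Camk2d, Camk2g and Camk4.

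Across the comparisons, none of the 8 members passed the test. The thresholds of the study were applied, with an adjusted p of at most 0.05 and a log2 fold change of at least 0.38 in either direction, that is 1.3-fold. edgeR called 0 of 8 members for EE against SH in WT, where it called 0% of the 18482 genes tested, and 0 of 8 in KD, where it also called 0%. It called 0 of 8 for KD against WT in SH and 0 of 8 in EE, with 0% of all genes called in each, and 0 of 8 for the difference between the housing effects of the 2 genotypes, again with 0% of all genes. For EE against SH over both genotypes it called 0 of 8 members and 0.146% of all genes, and for KD against WT over both housings 0 of 8 and 0%. With the 22 libraries no member had an unadjusted p under 0.05 in any of these 7 comparisons, and DESeq2's Wald test likewise gave no member a call or an unadjusted p under 0.05. Over all genes, the number at an unadjusted p under 0.05 by edgeR was 1598 for housing in WT, 1779 for housing in KD, 1065 for genotype in SH, 482 for genotype in EE and 377 for the difference between housing effects, and 2983 and 1120 for housing and genotype over both levels of the other factor.

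The groups overlapped for every member. None of the 8 had separate ranges of CPM for housing in WT, where 1.16% of all genes did, for housing in KD, where 0.557% did, for genotype in SH, where 0.276% did, or for genotype in EE, where 0.346% did. The fold changes were small as well. The median absolute log2 fold change of the members was 0.06 in WT with housing, beside 0.09 over all genes tested, and 0.06 beside 0.10 in KD. For KD against WT it was 0.04 beside 0.08 in SH and 0.04 beside 0.07 in EE.

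The intervals show what sizes of change these libraries leave. For housing in WT, the 95% intervals of all 8 members lay inside ±0.38, as did those of 57.3% of all genes. For housing in KD those of 7 did, Camk2d being the exception with an interval up to 0.42, and for genotype in SH those of all 8 did. For genotype in EE those of 7 did, Camk2d again being the exception, at −0.22 to 0.39. For the difference between housing effects those of 6 did, and the intervals of Camk2d (−0.26 to 0.57) and Camk4 reached beyond. The share of all genes inside was 55.4%, 60.1%, 57.9% and 45.0% in these 4 comparisons. For housing over both genotypes and for genotype over both housings, the intervals of all 8 members lay inside, as did those of 66.8% and 70.2% of all genes. Smaller differences than 1.3-fold remain possible for every member.

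**Figure D3:**
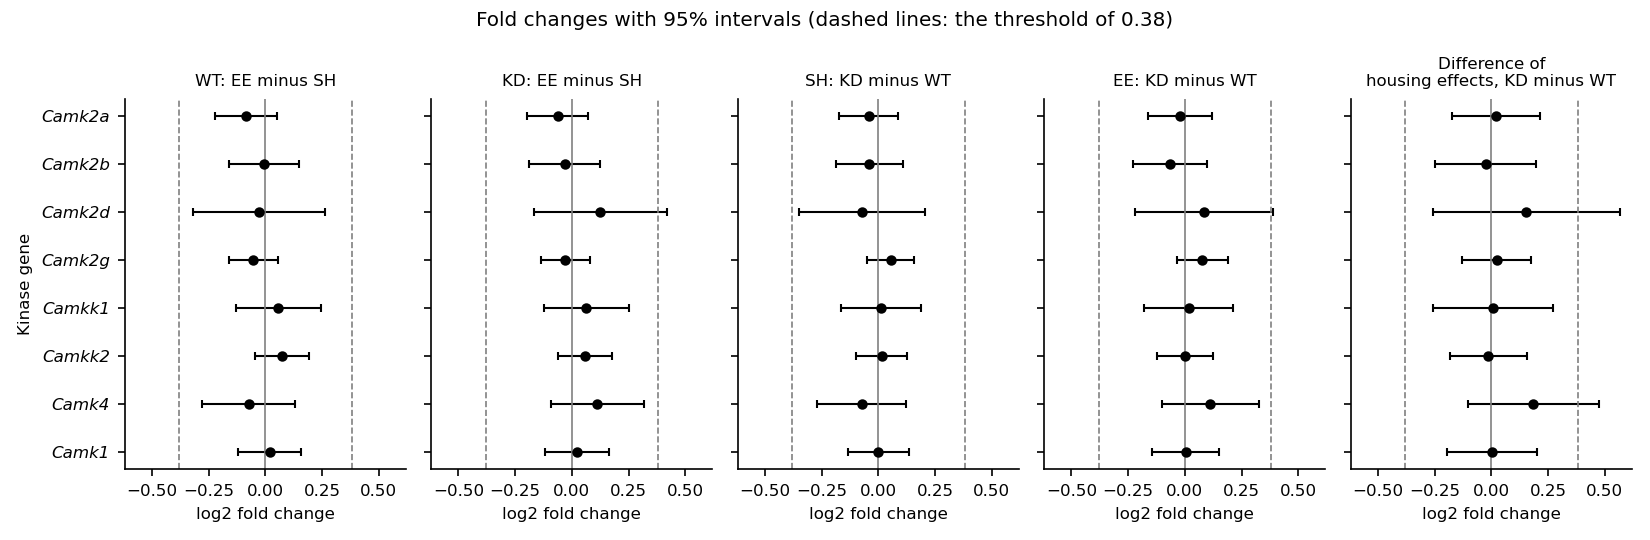
Log2 fold changes of the 8 kinase genes with their 95% intervals from edgeR in 5 comparisons, with dashed lines at the threshold of ±0.38. All intervals include 0, and only those of Camk2d and, in the last panel, Camk4 cross a dashed line.

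Some members varied together between libraries of the same group. After the mean of each group was removed, Camk2b and Camkk1 had a Pearson r of 0.82 and a Spearman rho of 0.77 over the 22 libraries (r 0.73 without library 5), and Camk2a and Camk2b an r of 0.70 and a rho of 0.64 (r 0.53 without library 5). Camk2d went the other way. Its r was −0.67 with Camk2b (rho −0.64, r −0.50 without library 5) and −0.67 with Camkk1 (rho −0.62, r −0.54 without library 5), whereas with Camk1 it was 0.53 (rho 0.52, r 0.52 without library 5). The kinase Camkk1 and its substrate Camk4 had an r of −0.55 (rho −0.32, r −0.33 without library 5). The genes of a library share that library's depth and base composition, and no p is attached to these values.

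**Figure D4:**
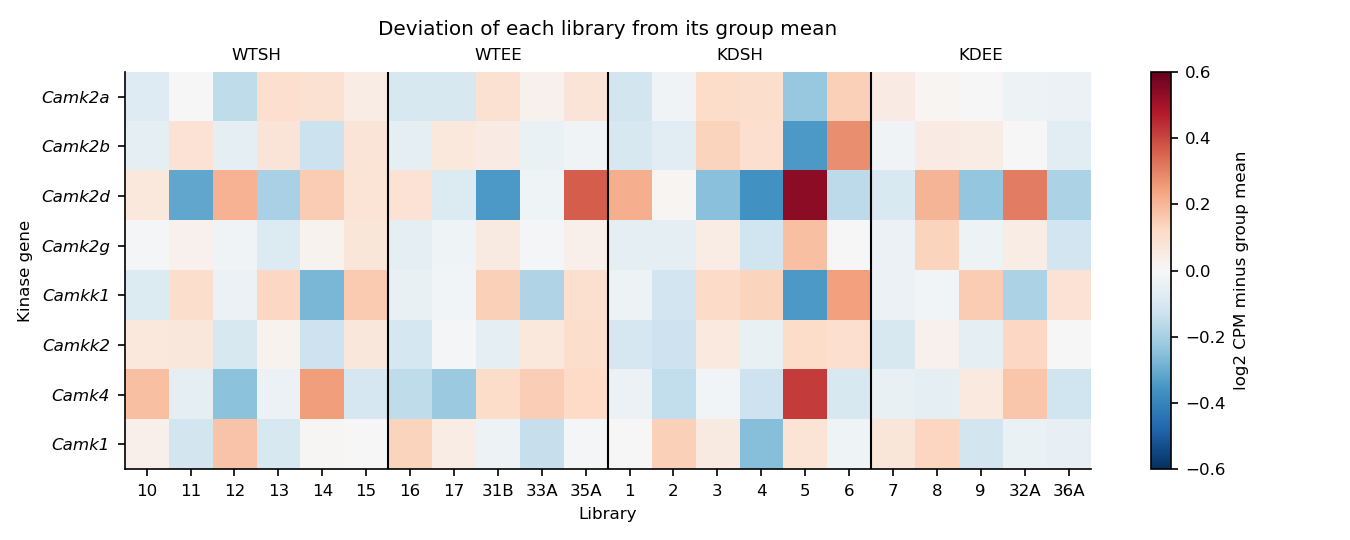
Deviation of log2 CPM from the group mean for each kinase gene (rows) in each library (columns, by group), from blue (below) to red (above). Library 5 has the strongest colours, with Camk2d at 0.54 and Camk4 at 0.42 above and Camk2b and Camkk1 at 0.35 below the group mean, and Camk2d is the most uneven row.

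Base composition moved with these deviations. For each library a GC tilt was taken as the mean deviation of the 508 most GC-rich genes minus that of the 508 most GC-poor genes among the 5156 abundant genes. It was lowest in library 5, at −0.46, and in library 14 of WT SH, at −0.34, and highest in library 6 of KD SH, at 0.38. Over the 22 libraries the deviation of Camk2b had an r of 0.83 with this tilt (0.74 without library 5), that of Camkk1 0.66 (0.53) and that of Camk4 −0.76 (−0.65). Camk2d had an r of −0.46 (−0.27), and Camk2a, Camk2g, Camkk2 and Camk1 lay between −0.14 and 0.31 (0.04 to 0.35). The GC content of the longest coding transcript was 56.3% for Camk2b, 55.3% for Camk1, 54.8% for Camkk1, 53.3% for Camk2a, 53.1% for Camkk2, 51.8% for Camk2g, 48.2% for Camk4 and 43.9% for Camk2d. The r were in the main higher for members with a higher GC content, but not in strict order. Camk1, second in GC content, had an r of 0.03, and the r of Camk4 was below that of Camk2d, the lowest in GC content. Without library 5, Camk2a had an r of 0.04, below Camkk2 at 0.35 and Camk2g at 0.23. With an offset for GC content in the fit, again no member was called. The part of the tilt in the deviations was not tested.

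**Figure D5:**
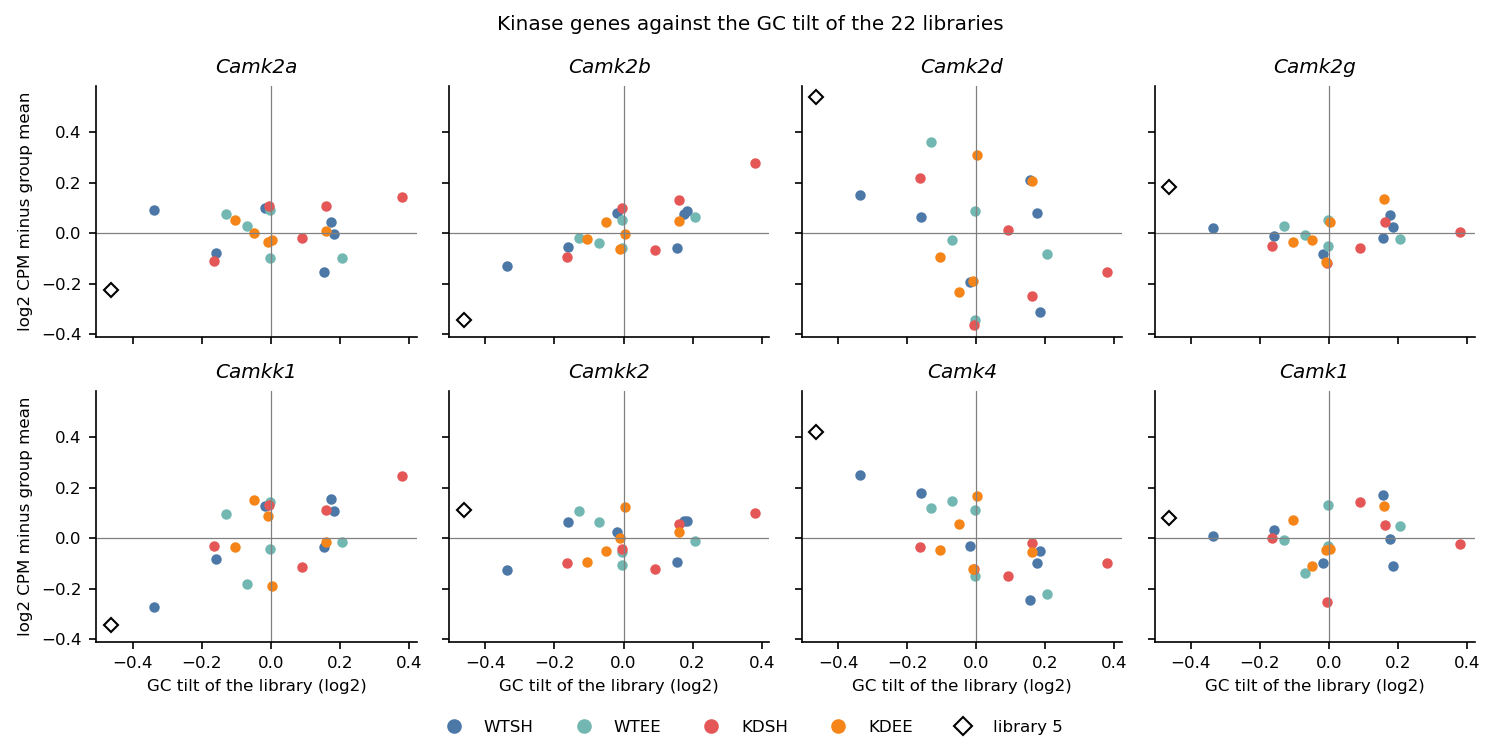
Deviation of log2 CPM from the group mean of each kinase gene (vertical axis) against the GC tilt of the library (horizontal axis, log2), 1 point per library with colours for the groups and library 5 as a white diamond. Camk2b and Camkk1 have an r of 0.83 and 0.66 with the tilt, and Camk4 one of −0.76.

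Library 5 also stood apart in markers of hippocampal cells. The 6 dentate gyrus markers summed to 299 CPM in library 5 and to between 378 and 534 in the other 21 libraries. The 5 CA1 markers summed to 354 CPM against 436 to 563, and the 5 markers of CA3 and CA2 to 241 CPM against 258 to 334, and none of these 16 genes was at 0 in any library. The 5 markers of excitatory neurons had their lowest sum in library 5, at 1574 CPM, but their mean on the log2 scale was the highest of the 22 there, at 7.36. Library 12 of WT SH held the 9 thalamic markers at 474 CPM against 119 to 176 elsewhere, and library 14 the 8 striatal markers at 361 CPM against 174 to 227. Camk4 was at 128 CPM in library 12, the lowest of WT SH, and at 180 in library 14, the highest of WT SH. The 12 markers of choroid plexus ran from 65.6 to 5838 CPM, with medians of 122 in WT SH, 4215 in WT EE, 180 in KD SH and 2316 in KD EE. Their part in the values of the kinases was not tested, and no member was called without libraries 12 and 14 or with the choroid plexus score in the fit.

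For each member the 3 other genes with the highest r of within-group deviations were taken from the 18474 tested genes that are not members. Camk2a varied most like Gng7 (r 0.93), a G protein γ subunit, Ddn (0.91), which encodes the postsynaptic protein dendrin, and Rasgef1a (0.89). Camk2b varied most like Adgrb2 (0.97), Unc5a (0.96), a netrin receptor, and Plekhg5 (0.96). Camk2d varied most like Arhgap6 (0.89), Dpp10 (0.86) and Necab1 (0.86), and Camk4 most like Gpr158 (0.94), Dennd4a (0.94) and 1700020I14Rik (0.93). For Camkk1 the genes were Bap1 (0.92), Dda1 (0.91) and Kcnab2 (0.90), and for Camk2g they were Pcsk2 (0.84), Phf24 (0.81) and Peg13 (0.81). Camkk2 varied most like RP24-325P4.5 (0.83), Rnf125 (0.80) and Hipk4 (0.78), and Camk1 most like Blvra (0.82), Dusp26 (0.78) and Cplx3 (0.76). RP24-325P4.5 and Rnf125 lay under 1 CPM on average. All r are over 22 libraries, and those without library 5 were between 0.72 and 0.94. Camk2b, Camk4 and Camkk1 had an r of 0.83, −0.76 and 0.66 with the GC tilt, whose part in these values was not tested.

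The genes around the kinases gave no call with the 22 libraries. Of 31 genes in 7 lists, edgeR called 0 in each of the 7 comparisons. For housing, 6 of them (19.4%, beside 8.65% of all genes) had an unadjusted p under 0.05 in WT, 6 (19.4%, beside 9.63%) in KD and 7 (22.6%, beside 16.1%) over both genotypes. For genotype these were 4 (12.9%, beside 5.76%) in SH, 1 (3.23%, beside 2.61%) in EE and 2 (6.45%, beside 6.06%) over both housings, with 1 (3.23%, beside 2.04%) for the difference between housing effects. The shares were not tested against each other. DESeq2 called 0 of them in each comparison. At an unadjusted p under 0.05 it had 6 of them in WT, 6 in KD and 8 over both genotypes for housing, beside 5.24%, 5.89% and 9.61% of all genes that it tested without the filter on low counts. For genotype it had 4 in SH, 1 in EE and 2 over both housings, beside 3.71%, 2.02% and 3.91%, and 1 for the difference, beside 1.62%. For housing over both genotypes DESeq2 gave 2 of them, Ppp3ca and Ppp3cb, an adjusted p under 0.05, the lower being 0.037 for Ppp3ca, whose log2 fold change of −0.15 (SE 0.04) lay under the fold threshold of the call. In the 17 libraries that the study tested, edgeR called 1 of the 31 genes, Pcp4l1, for housing in WT (0.55, SE 0.11, adjusted p 0.0036) and over both genotypes (0.44, SE 0.08, adjusted p 0.00056). Of all 18701 genes tested there, it called 664 for housing in WT and 720 over both genotypes. The study had removed 5 libraries for poor correlation within a group, so measured values shaped that set. Of those removed, EE libraries 9, 31B and 35A held the choroid plexus markers at 250, 120 and 105 CPM. SH libraries 2 and 12 held them at 3024 and 1947 CPM. The part of the choroid plexus in the Pcp4l1 values was not tested. With the 22 libraries Pcp4l1 had 0.09 (SE 0.18, adjusted p 0.938) in WT and 0.14 (SE 0.13, adjusted p 0.628) over both genotypes. The median log2 fold change of the 31 genes lay between −0.01 and 0.02 in all 7 comparisons.

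Calcineurin, the calmodulin-dependent phosphatase that opposes CaMKII in synaptic plasticity, had the lowest adjusted p of these lists for housing over both genotypes. Its catalytic subunit Ppp3cb stood at 351 ± 20.1 CPM (SD, n = 6) under SH and 318 ± 7.64 (SD, n = 5) under EE in WT, and at 369 ± 37.7 (SD, n = 6) under SH and 328 ± 19.2 (SD, n = 5) under EE in KD. Over both genotypes its log2 fold change with enrichment was −0.15 (SE 0.04, adjusted p 0.091 by edgeR). Marker sums also moved with housing, in that the group medians of the choroid plexus markers were higher under EE, and those of 6 oligodendrocyte markers were 5526 CPM in WT and 5514 in KD under SH against 5048 and 5029 under EE. The medians of 5 microglia markers were 248 and 247 CPM under SH against 231 and 217 under EE, and those of 7 interneuron markers 846 and 845 against 784 and 792. The ranges of these 3 sums overlapped between housings in both genotypes, and the part of these cells in the calcineurin values was not tested. Without library 2 of KD SH, edgeR gave Ppp3ca, another catalytic subunit, and Ppp3cb an adjusted p under 0.05 in this comparison (lowest 0.045), and without library 12 of WT SH it did so for Ppp3ca (0.038). In the 17 libraries that the study tested, a set shaped by measured values, it did so for both, each time below the fold threshold. Ppm1f, a phosphatase of the CaM kinases, went the other way. It stood at 93.3 ± 5.05 CPM (SD, n = 6) under SH and 99.95 ± 7.05 (SD, n = 5) under EE in WT, and at 93.9 ± 5.49 (SD, n = 6) under SH and 105 ± 9.17 (SD, n = 5) under EE in KD. Its log2 fold change with enrichment was 0.10 (SE 0.06, adjusted p 0.687 by edgeR) in WT, 0.18 (SE 0.06, adjusted p 0.457) in KD, the lowest adjusted p of the 31 genes there, and 0.14 (SE 0.04, adjusted p 0.104) over both genotypes. Of the 7 phosphatase genes, 3 had a positive and 4 a negative value over both genotypes, and the 4 with an unadjusted p under 0.05 were Ppm1f, with a positive value, and Ppp3ca, Ppp3cb and Ppp3r1, with negative ones. Among the calmodulins, Calm2 had −0.17 (SE 0.05, adjusted p 0.113 by edgeR).

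Of the calmodulin-binding proteins of neurons, Gap43, a growth-cone protein, stood at 145 ± 9.05 CPM (SD, n = 6) under SH and 128 ± 4.28 (SD, n = 5) under EE in WT, and at 133 ± 8.39 (SD, n = 6) under SH and 129 ± 7.04 (SD, n = 5) under EE in KD. Its log2 fold change with enrichment was −0.18 (SE 0.05, adjusted p 0.397 by edgeR) in WT, −0.03 (SE 0.05, adjusted p 0.860) in KD and −0.11 (SE 0.04, adjusted p 0.140) over both genotypes, with a difference between the genotypes of 0.15 (SE 0.07, unadjusted p 0.058). Camk2n2, an inhibitor protein of CaMKII, was at 75.2 ± 10.6 CPM (SD, n = 6) under SH and 65.9 ± 2.38 (SD, n = 5) under EE in WT, and at 66.4 ± 5.47 (SD, n = 6) under SH and 70.8 ± 5.12 (SD, n = 5) under EE in KD. The difference between its housing effects was 0.30 (SE 0.11, unadjusted p 0.012, adjusted p 1.0 by edgeR). Mylk, the myosin light chain kinase, had the lowest p for genotype, with −0.23 over both housings (SE 0.06, unadjusted p 0.00041, adjusted p 0.6197), and its group means were 18.4 CPM in WT SH and WT EE, 15.4 in KD SH and 15.9 in KD EE. Pnck had −0.20 (SE 0.08, adjusted p 0.462) with enrichment in WT, −0.03 (SE 0.08, adjusted p 0.926) in KD and −0.11 (SE 0.06, adjusted p 0.312) over both genotypes. Lrrc7, the scaffold protein densin that binds CaMKII, had −0.36 (SE 0.15, adjusted p 0.811) for KD against WT in SH, −0.18 (SE 0.17, adjusted p 1.0) in EE and −0.27 (SE 0.11, adjusted p 0.803) over both housings. None of these passed the test.

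Other genes that had the lowest p of their list in a comparison were not called either. For housing in KD, Pcp4, a small calmodulin-binding protein that lay at 3.66 to 5.62 CPM as a group mean, had −0.51 (SE 0.25, adjusted p 0.517 by edgeR), Camk1g had 0.16 (SE 0.09, adjusted p 0.5679) and Dapk1 0.12 (SE 0.09, adjusted p 0.690). For genotype in SH, Calm3 had −0.08 (SE 0.06, adjusted p 0.865) and Ppp3r1 0.09 (SE 0.07, adjusted p 0.863), and for genotype in EE Prkaa1 had −0.10 (SE 0.07, adjusted p 1.0). Over both housings Camk2n1 had 0.08 (SE 0.06, adjusted p 0.844). For the difference between housing effects Ppp1ca had 0.07 (SE 0.06, adjusted p 1.0).

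Rps6ka5, which encodes MSK1, stood at 24.9 ± 2.25 CPM (SD, n = 6) in WT and 25.5 ± 2.14 (SD, n = 6) in KD under SH, and 21.4 ± 1.94 (SD, n = 5) in WT and 23.5 ± 3.32 (SD, n = 5) in KD under EE. For KD against WT its log2 fold change was 0.03 (SE 0.08) in SH and 0.14 (SE 0.09) in EE, with adjusted p of 0.980 and 1.0 by edgeR. With enrichment it was −0.22 (SE 0.09, 95% interval −0.40 to −0.04, unadjusted p 0.016, adjusted p 0.448) in WT, −0.12 (SE 0.09, adjusted p 0.675) in KD and −0.17 (SE 0.06, unadjusted p 0.011, adjusted p 0.164) over both genotypes, none of them called. A point mutation does not show in gene counts, so these levels do not check the genotype labels. The depth of the 22 libraries was between 8911999 and 56752074 counts on genes, and the lowest count of any member in any library was 361. The 2 libraries left out, 33B of WT EE and 34B of KD EE, held 54.1% and 56.0% of their counted fragments outside single genes, against 14.05% to 18.6% in the others.

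The members lie on 6 chromosomes by GENCODE M21 on GRCm38. Camk2b lies on chromosome 11 from 5969644 to 6066362 on the minus strand, and Camkk1 on the same chromosome from 73019008 to 73042073 on the plus strand. Camk2d lies on chromosome 3 from 126596302 to 126846326, plus strand, and Camk2g on chromosome 14 from 20734875 to 20794088, minus strand. Camkk2 lies on chromosome 5 from 122731170 to 122779409 and Camk1 on chromosome 6 from 113334124 to 113343984, both on the minus strand. Camk2a lies on chromosome 18 from 60925618 to 60988152 and Camk4 on the same chromosome from 32934931 to 33191228, both on the plus strand. The counts take in the exons of each whole gene, so that splice forms of a subunit are summed in every value given here.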

How the data were processed

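Poly-A RNA of whole hippocampus was sequenced as 24 libraries of 150 bp read pairs without strand information. According to the submitters' processing notes the reads were aligned to GRCm38 with STAR 2.5 and counted with HTSeq; the authors deposited raw counts per gene symbol for each library. Rows for reads outside single genes (14.0% to 18.6% of a library) were left out of library sizes. A table of size-factor-normalized values for 17 libraries was not used here. Libraries 33B and 34B, which failed quality control in the study, were left out. The 5 libraries that the study removed for poor correlation within a group were kept. No 2 libraries of a group held identical counts (60 pairs).

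Genes were filtered with filterByExpr, scaled by TMM and tested with edgeR 4.0.16 (glmQLFit, glmQLFTest) in R 4.3.3, with 1 model of 4 group means, no covariates and Benjamini-Hochberg adjustment over 18482 genes. Levels are CPM scaled by TMM over all genes of the files, and log2 CPM used a prior count of 2. DESeq2 1.42.0 was an alternative. The fit was tested on simulated data. Figures were drawn with matplotlib 3.10.9. Genes named are the members, Rps6ka5, of each of 7 lists those called by a fit or with the lowest adjusted p in a comparison (ties by unadjusted p; 1 such gene is not reported here), and the 3 genes most like each member; genes that overlap a member are named besides, and Ppp3ca was chosen after its values were seen; members and lists were chosen with earlier results of these data known. Intervals of 95% come from the fitted SE. Alternatives were other sets of libraries, DESeq2, its size factors, no filter, a choroid plexus covariate, a GC offset, and each library left out in turn.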

Additional observations from a re-analysis of the deposited data

Results flagged for a closer look

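In KD SH, the Camk4 level of library 5, at 193 CPM, lay farther from the other 5 libraries than Dixon's 95% limit for a group of 6 allows, the next highest being 142 CPM. It was the 1 such value among the 32 combinations of member and group, and chance flags about 1 in 20. The same library had the lowest GC tilt of the 22, at −0.46, and the lowest sum of dentate gyrus markers, at 299 CPM; their part in the Camk4 value was not tested.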

How the results depend on the processing

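The call for each member was the same under all alternatives, with 0 of 8 members called in every comparison by 9 other settings and with each of the 22 libraries left out in turn. Of 504 fold changes under the 9 settings, 54 changed sign, and of 1232 with a library left out, 116 did; all of these were within 1 SE of 0 with all 22 libraries and were not counted as reversed. The lowest adjusted p of a member was 0.226, for Camk2a with housing over both genotypes in the 17 libraries of the study (log2 fold change −0.12). The largest absolute fold change was 0.37 on the log2 scale, for the difference of Camk4 between housing effects (adjusted p 0.622 by edgeR). It came from the fit without the libraries whose code carries a letter, all of them EE libraries. Camk4 with housing in KD was 0.23 with the choroid plexus score as a covariate (adjusted p 0.329 by edgeR). The GC offset was chosen after seeing the data.

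Counts over all genes depended far more on the setting. For housing in WT they were 0 with 22 libraries and 664 with 17, 314 without lettered libraries, 23 by DESeq2 and 7 without a filter; for housing in KD 0, 325 with 17 libraries and 2 by DESeq2. For housing over both genotypes the count was 27, against 720 with 17 libraries, 217 by DESeq2, 209 without a filter, 127 with the GC offset, 90 with all 24, 80 without lettered libraries, 44 with DESeq2's size factors, 9 with the choroid plexus score, 4 without libraries 12 and 14, and 2 to 287 with 1 library left out. Among the 31 pathway genes, Pcp4l1 was called in the 17 libraries alone, for housing in WT and over both genotypes, where Ppp3ca and Ppp3cb had an adjusted p under 0.05 without a call. The 17 libraries were those left after the study removed others for poor correlation within a group, so measured values shaped that set. The causes were not tested. No paired analysis was possible because the groups share no replicate numbers.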
